A study of Mus musculus with 8 samples.

Results

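Peak lists of 5-hydroxymethylcytosine (5hmC) from mouse cells on day 3 of reprogramming were compared between the OSNK method and the OySyNyK method. The members were all peaks of the 2 D3 lists, 89497 with OSNK and 93694 with OySyNyK, together 183191 of the 684512 peaks in the 8 lists of the series. A peak was called shared when it overlapped a peak of the other D3 list by at least 1 bp, and method-specific otherwise. The cells were intermediates from OG2 mouse embryonic fibroblasts (MEF), and OG2 is known as a strain with an Oct4-GFP reporter. OSNK stands for the factors Oct4, Sox2, Nanog and Klf4, and in OySyNyK the factors marked y are, from general knowledge of the study, fused to the transactivation domain of YAP. Per the labels' protocols, cells for iPSC generation received vitamin C and leukemia inhibitory factor, so both arms share these agents, and iPSCs were kept on MEF feeder cells. Whether cells were sorted before DNA was taken is not given in the sources used here. The D1 and D5 lists of each method, MEF and induced pluripotent stem cells (iPSC, titled with the OySyNyK factors) were used to look up where the D3 peaks were found again. Each list came from 1 library, so no comparison has a replicate and no p-value is given.

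5hmC is made from 5-methylcytosine by the TET enzymes, which oxidise the methyl group. It is an intermediate on a route to unmethylated cytosine and can also stay as a mark in its own right, often over gene bodies and distal enhancers of active genes. During reprogramming the fibroblast pattern of cytosine modification is replaced by that of pluripotent cells, and TET proteins and vitamin C, a cofactor of these enzymes, are known to take part. In a bulk culture, a peak seen with 1 method and not the other can stem from more cells carrying 5hmC there or from more 5hmC per cell, and these cannot be told apart.

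The D3 lists had similar numbers of peaks but unlike shapes. OSNK D3 covered 98.2 Mb with a median peak width of 911 bp, and OySyNyK D3 covered 74.3 Mb with 680 bp. Median scores, the authors' value for each peak, were 91.4 and 84.2. In MACS this score is -10 times the log10 of a p-value, and its lowest value in every list was 50. Sequencing depth is unknown, so where a list has no peak, 5hmC may still have been there below the caller's limit. At D1 and D5 the OSNK list was the longer, with 116302 against 100951 and 92762 against 70592 peaks, and at D3 the OySyNyK list was the longer. Intervals below are exact 95% binomial intervals and cover counting error only.

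Most D3 peaks were shared, and the methods gave nearly equal numbers of specific peaks. With OSNK, 36056 peaks had no OySyNyK partner, which is 40.3% of the list (95% interval 39.97 to 40.6). With OySyNyK, 35586 peaks had no OSNK partner, which is 38.0% (37.7 to 38.3). The other 53441 OSNK peaks and 58108 OySyNyK peaks were shared. The unequal shared numbers came from 4905 OSNK peaks that each spanned at least 2 OySyNyK peaks, against 915 OySyNyK peaks that spanned at least 2 OSNK peaks. At D1 the specific shares were 36.0% and 24.8%, and at D5 53.3% and 38.8%. The gap between the methods' shares was thus smallest at D3, where the list lengths were nearest. Each method's own share was lowest at D1. Specific peaks held 32.4% of the sequence covered at OSNK D3 (31.9 Mb) and 31.4% of that covered at OySyNyK D3 (23.4 Mb).

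Specific peaks were the weaker and narrower part of both lists. The median score was 72.1 for OSNK-specific peaks and 116 for shared OSNK peaks, and 67.8 and 103 with OySyNyK. The specific share fell with score from class to class. Of the OSNK peaks scored from 50 to below 60, 64.3% were specific, against 32.4% from 100 to below 150, 9.90% from 200 to below 300 and 3.70% from 300 to below 500. With OySyNyK the same classes held 60.7%, 25.1%, 5.21% and 0.886%. In every class from 50 to 1000 the OSNK share was the higher. Above 500, only 3 OSNK-specific peaks and 1 OySyNyK-specific peak were left. Among peaks scored 1000 or more, 0 of 128 OSNK peaks were specific (upper limit of the interval 2.84%) and 0 of 47 OySyNyK peaks (7.55%).

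**Figure D1:**
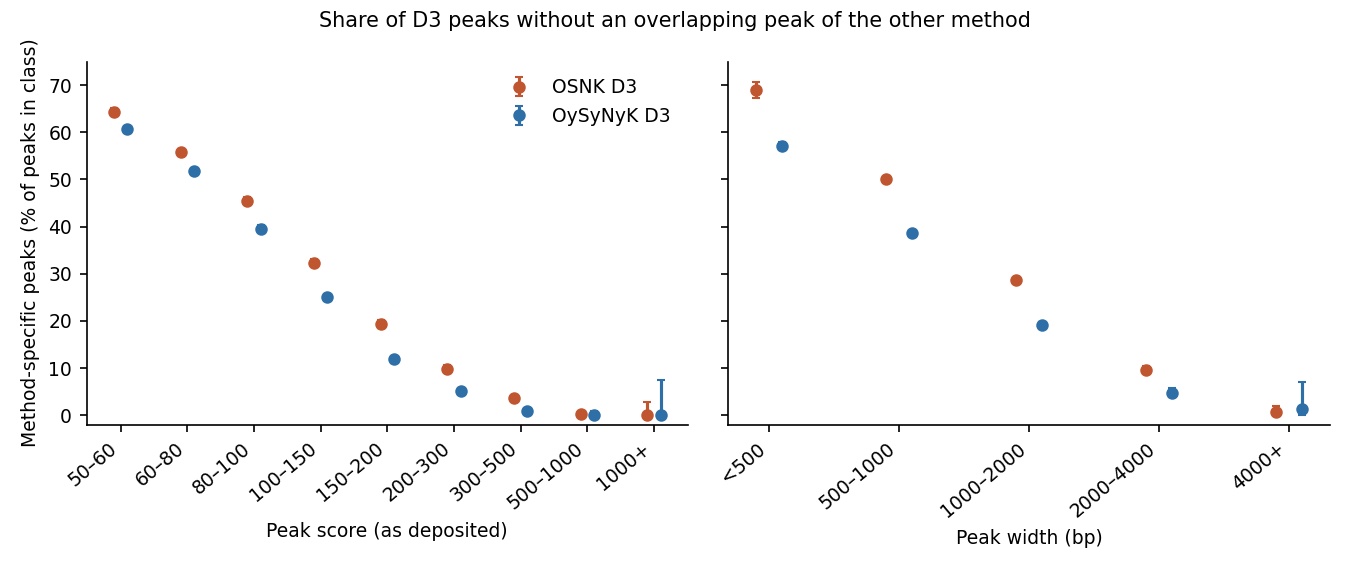
Share of D3 peaks with no overlapping peak of the other method (y axis, percent of the peaks in a class) by deposited peak score (left) and peak width in bp (right), for OSNK D3 and OySyNyK D3. Points are shares and bars exact 95% binomial intervals. The share falls from 64.3% and 60.7% in the lowest score class to 0 in the highest.

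Width showed the same order within each list and a gap between the lists. The median width of OSNK-specific peaks was 793 bp (quartiles 654 and 1017), against 1027 bp for shared OSNK peaks (790 and 1461). The median width of OySyNyK-specific peaks was 592 bp (quartiles 485 and 752), against 747 bp for shared OySyNyK peaks (579 and 1028). An OSNK-specific peak was thus typically wider than a shared OySyNyK peak. Broad peaks were nearly all shared: among those of 4000 bp or more, 4 of 533 with OSNK and 1 of 76 with OySyNyK were specific. In the 47282 shared peaks paired one to one, the OSNK peak was the wider in 81.9%, with a median width ratio of 1.27 (quartiles 1.06 and 1.62). The score was nearer to balance in the same pairs. It was higher with OSNK in 54.1%, with a median ratio of 1.05 (quartiles 0.745 and 1.49). The rank correlation of the paired scores was 0.46 (Spearman's rho, over pairs that share 2 libraries), so the rank of a shared peak by score differed widely between the methods.

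Few peaks sat near the 1-bp border of the definition. An overlap of 1 to 50 bp made 125 OSNK peaks (median width 848 bp, median score 70.8) and 245 OySyNyK peaks (634 bp, 67.0) shared. A gap of 0 to 49 bp left 236 OSNK peaks (830.5 bp, 72.8) and 340 OySyNyK peaks (589.5 bp, 68.1) specific. Shared peaks overlapped deeply: the median share of a shared peak covered by the other list was 77.0% for OSNK peaks and 100% for OySyNyK peaks. The latter value shows that shared OySyNyK peaks often lay wholly under OSNK peaks.

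Specific peaks often lay close to 5hmC that both methods had. The median distance from an OSNK-specific peak to the nearest shared peak of its list was 7776 bp (quartiles 2089 and 25610), and from an OySyNyK-specific peak 6683 bp (2077 and 19002). Within 5 kb of a shared peak lay 40.5% of the OSNK-specific and 43.3% of the OySyNyK-specific peaks. Shared peaks were closer to each other, with 58.8% and 62.7% within 5 kb of the next shared peak. The lists differed at the far end. More than 100 kb from any shared peak lay 2741 OSNK-specific peaks (7.60%) and 1362 OySyNyK-specific peaks (3.83%). The remote OSNK-specific peaks had a median width of 701 bp and a median score of 67.5, against 858 bp and 75.9 within 1 kb of a shared peak. For OySyNyK-specific peaks these values were 500 bp and 62.8, against 624 bp and 70.3.

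**Figure D2:**
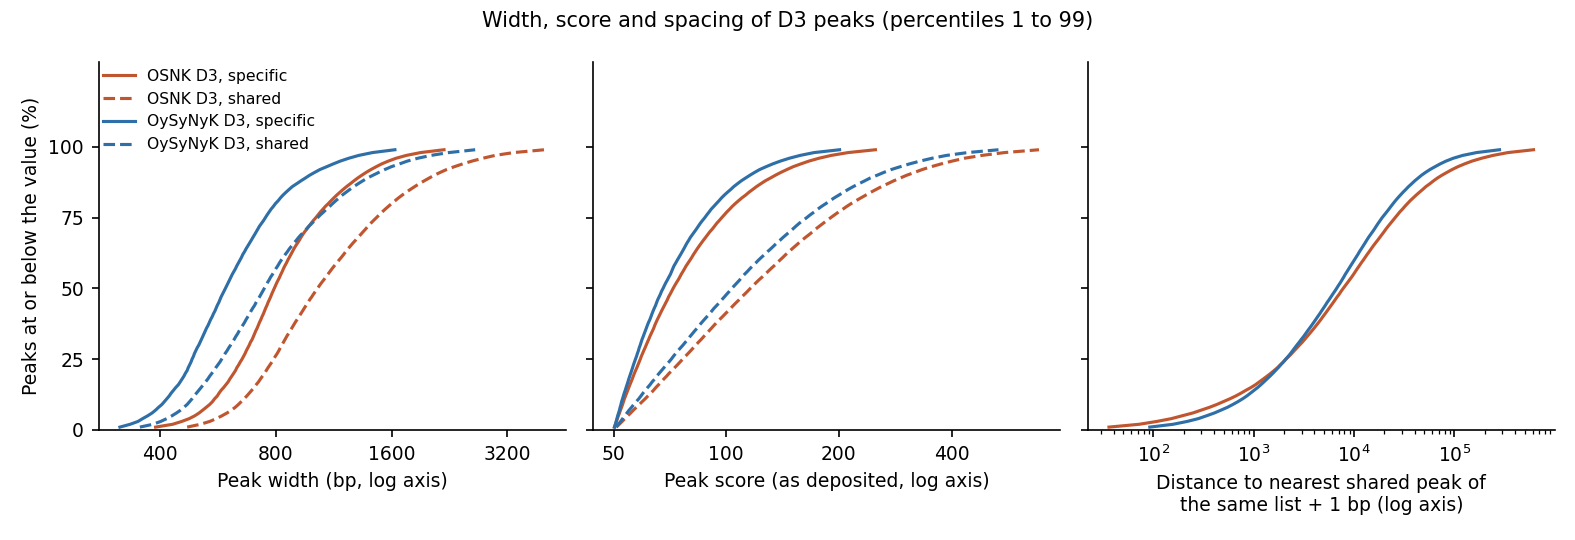
Cumulative percent of D3 peaks (y axis, percentiles 1 to 99) against peak width in bp, deposited peak score, and distance in bp to the nearest shared peak of the same list, all on log axes. Solid lines are method-specific and dashed lines shared peaks of OSNK D3 and OySyNyK D3, with median widths of 793, 592, 1027 and 747 bp for OSNK-specific, OySyNyK-specific, shared OSNK and shared OySyNyK peaks.

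The specific sets differed in when they were seen with their own method. At OSNK D1, 59.6% of the OSNK-specific D3 peaks were already present (95% interval 59.1 to 60.1). At OySyNyK D1, 40.1% of the OySyNyK-specific D3 peaks were present (39.6 to 40.7). At D5, 45.4% of the OSNK-specific peaks were found again with OSNK (44.9 to 45.9), and 38.5% of the OySyNyK-specific peaks with OySyNyK (37.98 to 39.0). The D5 order was turned in equally long lists: with the 70592 best-scoring peaks of each intermediate list, the values were 44.1% for OSNK-specific and 48.3% for OySyNyK-specific peaks. The D1 order was the same there, at 48.97% and 35.6%. Shared peaks were found far more often, with 81.1% and 80.5% of the shared OSNK peaks at OSNK D1 and D5, and 80.5% and 61.9% of the shared OySyNyK peaks at OySyNyK D1 and D5.

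Many specific D3 peaks overlapped a peak of the other method at D1 or D5. Of the OSNK-specific peaks, 34.2% overlapped an OySyNyK D1 peak (33.7 to 34.7) and 13.0% an OySyNyK D5 peak (12.6 to 13.3). Of the OySyNyK-specific peaks, 27.9% overlapped an OSNK D1 peak (27.5 to 28.4) and 27.4% an OSNK D5 peak (26.9 to 27.9). The share met at D5 by the other method was therefore 14.5 percentage points higher for OySyNyK-specific peaks, and between 8.18 and 19.1 points higher under the 6 alternatives. The OSNK D5 list was longer than the OySyNyK D5 list. Taking equally long lists, the values were 18.3% of the OSNK-specific peaks at OySyNyK D5 and 26.5% of the OySyNyK-specific peaks at OSNK D5.

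**Figure D3:**
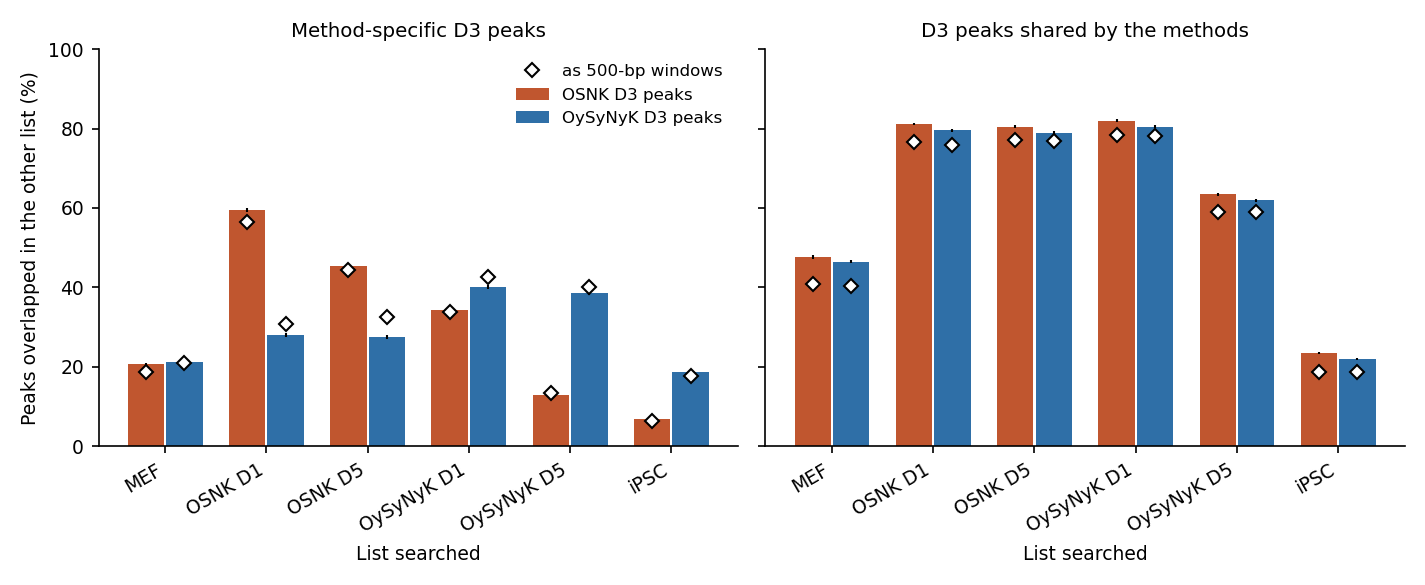
Percent of method-specific (left) and shared (right) D3 peaks that overlapped a peak of the MEF, D1, D5 and iPSC lists (x axis). Bars are OSNK D3 and OySyNyK D3 peaks with exact 95% binomial intervals, and open diamonds the same with 500-bp windows; the OSNK-specific bar is 59.6% at OSNK D1 and 6.71% in iPSC, and the OySyNyK-specific bar 40.1% at OySyNyK D1 and 18.8% in iPSC.

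The 4 lookups together give the histories of the peaks. Peaks seen with both methods at D1 and with only OSNK at D3 numbered 10724, which is 29.7% of the OSNK-specific set. Of these, 8959 were absent again at OySyNyK D5, and 3776 of them were still present at OSNK D5. In reverse, 7659 peaks were seen with both methods at D1 and with only OySyNyK at D3, which is 21.5% of the OySyNyK-specific set. Of these, 5217 were absent again at OSNK D5, and 1632 of them were still present at OySyNyK D5. Many of these peaks were in the fibroblast list: 51.7% of the 10724 and 59.1% of the 7659 overlapped a MEF peak, against 20.6% and 21.3% of the whole specific sets.

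Peaks absent at D1 with both methods made up the larger part of the OySyNyK-specific set. They numbered 19020 (53.4%, 95% interval 52.9 to 53.97), against 12964 of the OSNK-specific set (35.96%, 35.5 to 36.5). Few of them overlapped a MEF peak, 6.76% with OySyNyK and 3.76% with OSNK. An iPSC peak was overlapped by 20.6% of them with OySyNyK and 8.11% with OSNK. Within this class, 2217 OySyNyK-specific and 1043 OSNK-specific peaks were met with both methods by D5. Of these, 37.5% and 25.6% overlapped an iPSC peak, against 18.8% and 6.71% of the whole specific sets.

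A difference between the methods that lasted over all 3 days was the exception. On all 3 days with OSNK and on none with OySyNyK were 4496 peaks, 12.5% of the OSNK-specific set (12.1 to 12.8). On all 3 days with OySyNyK and on none with OSNK were 1966 peaks, 5.52% of the OySyNyK-specific set (5.29 to 5.77). The lasting OSNK peaks had a median score of 92.7, with 8.07% overlapping a MEF peak and 5.83% an iPSC peak. The lasting OySyNyK peaks had a median score of 85.5, with 20.3% overlapping a MEF peak and 32.5% an iPSC peak. With equal numbers of peaks the lasting share was 8.98% of the OSNK-specific and 6.84% of the OySyNyK-specific set. Whatever was seen at D1, 13202 OSNK-specific peaks (36.6%) were present at OSNK D5 and absent at OySyNyK D5. In reverse, 8434 OySyNyK-specific peaks (23.7%) were present at OySyNyK D5 and absent at OSNK D5.

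Peaks of D3 alone were the weakest. In none of the other 4 intermediate lists were 6966 OSNK-specific peaks (19.3%) and 10057 OySyNyK-specific peaks (28.3%), with median scores of 61.3 and 60.7. With equal numbers of 500-bp windows these shares were 25.1% and 25.2%. In none of the other 6 lists, MEF and iPSC included, were 6468 OSNK-specific and 8422 OySyNyK-specific peaks.

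Later appearance with the other method was more common for OySyNyK-specific peaks. Met by OSNK at D5 but not at D1 were 6575 of them, 18.5% (18.1 to 18.9). Met by OySyNyK at D5 but not at D1 were 2546 OSNK-specific peaks, 7.06% (6.80 to 7.33). The OySyNyK-specific share was higher by 11.4 percentage points, and by 9.90 to 12.4 points under the 6 alternatives. Of the peaks that appeared later in this way, 25.3% of the OySyNyK-specific and 21.4% of the OSNK-specific ones overlapped an iPSC peak.

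The specific sets had similar shares in MEF and unlike shares in iPSC. All iPSC values in this text come from a single list titled with the OySyNyK factors. Likeness to iPSCs in general and likeness to cells made with these factors therefore cannot be told apart. A MEF peak was overlapped by 20.6% of the OSNK-specific and 21.3% of the OySyNyK-specific peaks, and among peaks scored 100 or more the order was turned, at 21.6% and 20.8%. MEF without iPSC accounted for 18.9% and 16.6%, and iPSC without MEF for 4.99% and 14.1%. In neither end state were 74.4% of the OSNK-specific and 64.6% of the OySyNyK-specific peaks. Shared peaks met MEF in 47.7% (OSNK) and 46.4% (OySyNyK) and iPSC in 23.4% and 21.96%.

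The sets were also compared within classes of score. Among specific peaks scored from 100 to below 150, 5798 with OSNK and 4501 with OySyNyK, presence at D1 of the own method was 75.1% and 60.1%. Presence at D5 of the own method was 63.9% and 65.1%, and presence at D5 of the other method 16.3% and 42.1%. In this class 7.99% of the OSNK-specific and 28.0% of the OySyNyK-specific peaks overlapped an iPSC peak, and 24.6% and 28.4% a MEF peak. From 200 to below 300, with 739 and 336 peaks, the iPSC shares were 12.4% and 53.9% and the shares met at D5 by the other method 28.0% and 61.3%. Presence in every other list was higher in this class than in the lowest score class of the same set.

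With 500-bp windows round the midpoints, the split was repeated with intervals of equal width. Peak width could still act, because a wide peak kept a single window and peaks under its edges could lose their partner. Its part in the values below was not tested. The specific windows numbered 39453 with OSNK (44.1%) and 42750 with OySyNyK (45.6%), so the larger share was now with OySyNyK. All but 7 OSNK-specific and 5 OySyNyK-specific peaks were also specific as windows. This was nearly fixed in advance, since the windows were narrower than most peaks. The added windows came from peaks that overlapped while their midpoints lay apart: 3404 OSNK peaks with a median width of 2173 bp, and 7169 OySyNyK peaks with 841 bp. Of the 8 shares at D1 and D5, all but that of OSNK-specific windows at OySyNyK D1 lay outside the interval of the whole-peak share. This rule leaves out the counting error of the window shares themselves. OSNK-specific windows were found at 56.5% at OSNK D1, 44.4% at OSNK D5, 33.8% at OySyNyK D1 and 13.4% at OySyNyK D5. OySyNyK-specific windows were found at 42.5% at OySyNyK D1, 40.02% at OySyNyK D5, 30.8% at OSNK D1 and 32.6% at OSNK D5. The iPSC shares were 6.21% and 17.7%. The median distance to the nearest shared window was 7770 bp with OSNK and 5700 bp with OySyNyK.

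The chromosomes differed in which method had the specific peaks. On chromosome 3, 45.7% of the OSNK peaks (95% interval 44.3 to 46.97) and 34.8% of the OySyNyK peaks (33.5 to 36.1) were specific, 2536 against 1730 peaks. On chromosome 11 the order was turned, with 33.8% (32.6 to 35.1) and 39.5% (38.3 to 40.7), 1924 against 2708 peaks. Over the 19 autosomes the OSNK share ranged from 33.8% to 45.7% and the OySyNyK share from 34.2% to 40.3%. The OSNK share was higher on 13 autosomes, and the intervals were apart on 11 of these. It was lower on 6 autosomes, with intervals apart on chromosomes 5, 7 and 11. With 500-bp windows the OSNK share was higher on 8 and lower on 11 autosomes, with intervals apart on 2 and 7 of these. The ratio of OSNK-specific to OySyNyK-specific numbers kept its ends there, lowest on chromosome 11 (0.710 with peaks and 0.664 with windows) and highest among autosomes on chromosome 3 (1.47 and 1.31). The X chromosome had the highest specific shares, 65.1% of 418 OSNK peaks (60.3 to 69.6) and 55.6% of 333 OySyNyK peaks (50.04 to 60.97). Its median scores, 69.7 and 68.4, were below the medians of the whole lists.

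**Figure D4:**
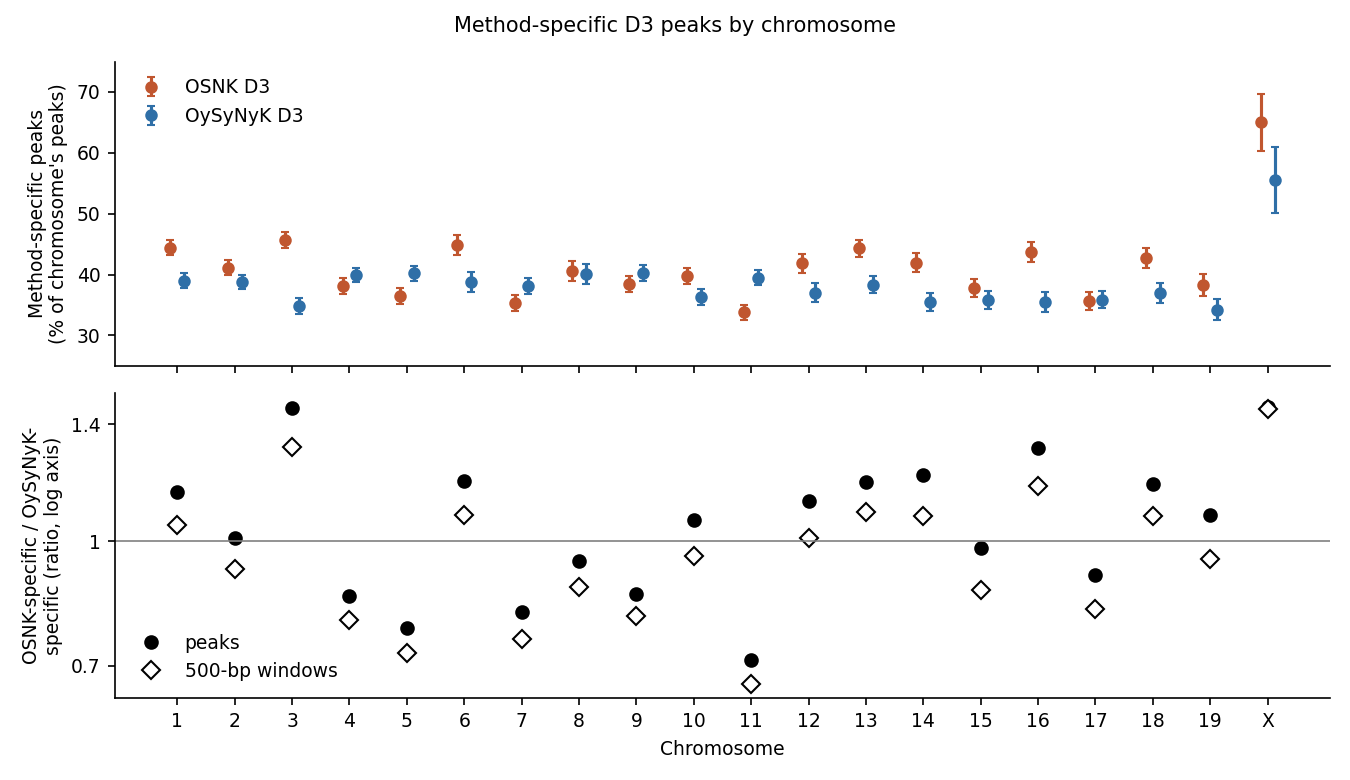
Method-specific D3 peaks by chromosome (x axis): percent of the chromosome's peaks for OSNK D3 and OySyNyK D3 with exact 95% binomial intervals (top), and the ratio of OSNK-specific to OySyNyK-specific numbers on a log axis for peaks and 500-bp windows (bottom). Among autosomes the ratio is lowest on chromosome 11 (0.710) and highest on chromosome 3 (1.47) with peaks.

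Within chromosomes, the balance between the specific sets differed with position and with the density of shared peaks. The last 10 Mb of the chromosomes, as spanned by the lists, held 8.31% of the OSNK-specific peaks (8.03 to 8.60) and 12.5% of the OySyNyK-specific peaks (12.2 to 12.9). Shared peaks were between these, at 11.7% and 11.9%. Both specific sets had more peaks per 100-kb region where shared peaks were denser, from 0.386 with OSNK and 0.248 with OySyNyK in regions with no shared OySyNyK peak to 3.99 and 4.68 in those with 11 or more. The ratio of the sets moved the other way. In regions with no shared OySyNyK peak there were 5512 OSNK-specific and 3541 OySyNyK-specific peaks, a ratio of 1.56. In regions with 6 to 10 shared peaks there were 7525 and 8884, a ratio of 0.847. With windows, the ratio in regions with 6 to 10 shared peaks was 0.783. In regions with 11 or more it was 0.851 with peaks, no lower than in the class before, and 0.678 with windows. Regions with OSNK peaks and no OySyNyK peak at D3 numbered 1985, and regions with OySyNyK peaks and no OSNK peak 1016. Both specific sets mixed on this scale: of the 16265 regions with a D3 peak, 9213 held specific peaks of both methods.

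The 5 highest-scoring OSNK-specific peaks were compared with the other lists. Positions are in the lists' own mouse assembly, counted from 1, and no gene annotation of it was used. The first, on chromosome 19 at positions 16533431 to 16537630, had a score of 788 and ranked 321st in its list. Its region was scored 96.9 at OSNK D1 and 901 at OSNK D5, had no peak in MEF or on any OySyNyK day, and reached 71.7 in iPSC. The nearest OySyNyK D3 peak was 12.01 kb away. The next, on chromosome 3 at 27405841 to 27409616, scored 641 and lay 439 bp from an OySyNyK D3 peak, so it was specific by a short gap. The peak on chromosome 12 at 13223553 to 13225750 scored 521, and OySyNyK peaks were called there at D1 (86.6) and D5 (79.96) but not at D3. The peak on chromosome 18 at 15424311 to 15427595 scored 488, with 62.2 at OySyNyK D1 and no OySyNyK peak later. The last of the 5, on chromosome 2 at 106648479 to 106650641, scored 486, with OySyNyK peaks at D1 (120) and D5 (60.3). All 5 were present at OSNK D1 and D5, and only the 1 on chromosome 3 overlapped a MEF peak. High-scoring OSNK-specific peaks mostly were present there. Of the 156 scored from 300 to below 500, 97.4% were found at OSNK D1, 94.9% at OSNK D5 and 27.6% in MEF.

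The 5 highest-scoring OySyNyK-specific peaks were likewise all present at OySyNyK D1 and D5. The first, on chromosome 11 at positions 57622290 to 57623532, scored 605 and ranked 353rd in its list. It scored 372 at OySyNyK D1 and 320 at D5, and peaks of 70.4 and 177 were called at OSNK D1 and D5. Neither MEF nor iPSC had a peak there. The peak on chromosome 5 at 113214546 to 113215368 scored 479, was absent on every OSNK day and in MEF, and scored 160 in iPSC. The peak on chromosome 17 at 45654450 to 45657606 scored 425, was absent on every OSNK day, and scored 54.4 in MEF and 506 in iPSC. The peaks on chromosome 11 at 112835627 to 112837213 and on chromosome 4 at 148207151 to 148209324 scored 462 and 414. OSNK had peaks at both places at D1 (226 and 136) and D5 (133 and 199), so there the D3 list was the exception. All 5 lay at least 11.6 kb from any OSNK D3 peak. Their presence with OySyNyK was usual for the score: of 27 OySyNyK-specific peaks from 300 to below 500, 92.6% were found at OySyNyK D1 and 100% at D5.

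Regions of 100 kb were ranked by the excess of sequence in specific peaks of 1 method. More bp lay in OSNK-specific peaks in 9648 regions (59.3% of those with a D3 peak) and in OySyNyK-specific peaks in 5959 (36.6%). This measure counts width, and OSNK-specific peaks were the wider, with a median of 793 against 592 bp. By number of peaks the order depended on the count used. OSNK-specific peaks without OySyNyK-specific peaks were in 3780 regions, and the reverse was in 2597. With a higher threshold, 2156 regions held 5 or more OSNK-specific peaks and 2532 held 5 or more OySyNyK-specific peaks. Of these, 350 and 447 held no specific peak of the other method. The top OSNK region, on chromosome 2 at positions 52700001 to 52800000, held 22 OSNK-specific and 0 OySyNyK-specific peaks. Peaks covered 37.5% of it at OSNK D3 and 9.71% at OySyNyK D3, against 12.8% in MEF and 2.21% in iPSC. The region next to it, from 52800001, also ranked among the 5, with 21 OSNK-specific peaks and 1 OySyNyK-specific peak, so the excess ran on beyond a single region. On chromosome 19, the neighbouring regions from 16500001 and 16600001 held 21 OSNK-specific peaks each and 0 OySyNyK-specific peaks. Peaks covered 1.90% of the first of these in MEF and 2.89% in iPSC. At D1, D3 and D5 the OSNK lists covered 11.98%, 34.3% and 32.4% of it, and the OySyNyK lists 2.86%, 4.05% and 2.10%. It also contains the highest-scoring OSNK-specific peak. On chromosome 16, positions 43500001 to 43600000 held 22 OSNK-specific peaks, with 33.6% cover at OSNK D3, 5.33% at OySyNyK D3, 4.86% in MEF and no peak in iPSC. Cover in iPSC was below that in MEF in 4 of the 5 OSNK regions and above it on chromosome 19 from 16500001. The whole iPSC list also covered less than the whole MEF list, 41.1 against 63.0 Mb. How many of all regions had less cover in iPSC was not counted.

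The OySyNyK regions had smaller excesses, and in 3 of the 5 cover in iPSC was above that in MEF. On chromosome 11, positions 79400001 to 79500000 held 15 OySyNyK-specific and 0 OSNK-specific peaks. Cover there was 8.06% in MEF and 20.6% in iPSC. At D1, D3 and D5 it was 17.4%, 23.8% and 19.4% with OySyNyK, and 10.3%, 8.22% and 6.42% with OSNK. Positions 118300001 to 118400000 on the same chromosome held 13 OySyNyK-specific peaks and 1 OSNK-specific peak, with 21.6% cover at OySyNyK D3, 8.30% at OSNK D3 and 19.3% in iPSC. On chromosome 12, the region from 103800001 held 12 OySyNyK-specific peaks, with 28.9% at OySyNyK D3, 17.5% at OSNK D3 and 39.98% in iPSC. In the other 2 regions, from 60200001 on chromosome 10 and from 119800001 on chromosome 8, cover in iPSC was below that in MEF. Their OySyNyK D3 cover was 35.8% and 52.8%, against 21.8% and 32.8% in MEF and 15.8% and 13.7% in iPSC. Cover at OySyNyK D3 was above both end states in all of the 5 regions but that on chromosome 12. The regions were picked for their excess at D3.

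**Figure D5:**
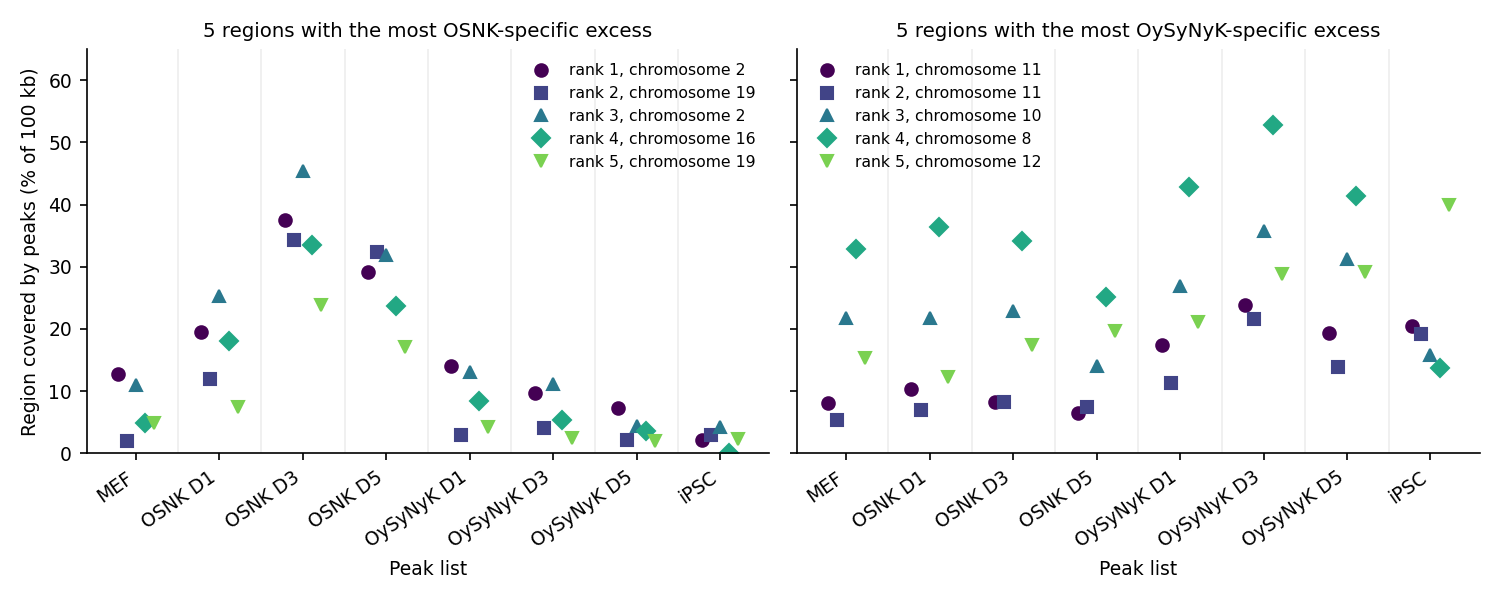
Percent of each 100-kb region covered by peaks (y axis) in the 8 lists (x axis), for the 5 regions with the largest OSNK-specific excess (left) and the 5 with the largest OySyNyK-specific excess (right). Each marker is 1 region in 1 library; on the left cover at OSNK D3 is 23.8% to 45.5% and at OySyNyK D3 at most 11.1%.

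Specific peaks of the same method also followed each other in runs without any shared or other-method peak between them, a summary chosen after the values were seen. Runs of 5 or more held 13.5% of the OSNK-specific peaks (771 runs) and 9.26% of the OySyNyK-specific peaks (548 runs). The longest, on chromosome 4 at positions 28226982 to 29013176, had 25 OSNK-specific peaks over 786 kb. There OSNK had 19 peaks at D1 and 42 at D5, OySyNyK had 3 at D1 and 0 at D5, MEF had 6 and iPSC 1. The OSNK runs that followed had 18 peaks each. That on chromosome 12 at 92501141 to 92776999 had 12 and 16 peaks at OSNK D1 and D5, 1 and 5 at OySyNyK D1 and D5, 1 in MEF and 14 in iPSC. That on chromosome 15 at 13425846 to 23346481 had 50 and 8 peaks at OSNK D1 and D5, 19 and 0 at OySyNyK D1 and D5, 18 in MEF and 2 in iPSC. The longest OySyNyK run, on chromosome 11 at 118376039 to 118845952, had 21 peaks, with 14 and 15 at OySyNyK D1 and D5, 3 on each of OSNK D1 and D5, 7 in MEF and 42 in iPSC. The next, near the distal end of chromosome 2 at 178704131 to 179501965, had 19 OySyNyK D3 peaks. In it OSNK had 19 peaks at D1, 0 at D3 and 3 at D5, while MEF had 15 and iPSC 33. The last of the 3 longest OySyNyK runs, on chromosome 4 at 130477882 to 130848721, had 17 peaks, with 8 and 12 at OySyNyK D1 and D5, 5 and 1 at OSNK D1 and D5, 4 in MEF and 28 in iPSC.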

How the data were processed

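5hmC in sheared genomic DNA was tagged with an azide-bearing glucose, coupled to biotin and pulled down on streptavidin beads for sequencing, per the labels' protocols. Each library has 1 deposited peak list. The tools in the submitters' processing notes are Bowtie and MACS, without versions, and the sources used here do not give settings or a control library. The score in column 5 was used as deposited. The builds named, hg18 and NCBI36, are human. The lists hold mouse chromosomes, with peaks on chromosome 1 up to position 197168143, beyond its end in GRCm38, so annotation and sequences of GRCm38 were not used, peaks were not assigned to genes and the planned gene lists were left out. From general knowledge of chromosome lengths the lists match mm9.

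Overlaps, distances and cover came from scripts in Python 3.11.15 (scipy 1.17.1, pandas 2.3.3, numpy 2.4.6), tested on simulated lists and equal to bedtools 2.31.1 in 14 of 14 list pairs. Figures used matplotlib 3.10.9. The named peaks were the 5 highest-scoring of each specific set, and the named regions the 5 of 100 kb with the largest excess in each direction. Members, rules and alternatives were chosen with earlier results of these data known. The 6 alternatives were 500-bp windows, overlap over 50% or more of a peak's length, a gap of up to 1 kb counted as overlap, a score of at least 100, the 70592 best-scoring peaks of each intermediate list, and these as 500-bp windows.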

Additional observations from a re-analysis of the deposited data

Results flagged for a closer look

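The order of the methods by list length at D3 was opposite to that at D1 and D5. The OySyNyK list minus the OSNK list came to 4197 peaks at D3, against -15351 at D1 and -22170 at D5. For the share of method-specific 500-bp windows, OySyNyK minus OSNK was 1.54 percentage points at D3, -10.03 at D1 and -13.8 at D5. At D3 the shared windows were nearly equal in number, 50044 with OSNK and 50944 with OySyNyK, so this share largely restates list length. With whole peaks the OSNK share was the higher on each day, at D3 with 40.3% against 38.0%. With 1 library per group, these differences between days were not tested. OSNK D3 was also the list with the widest peaks, and the part of peak width in its list length was not tested.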

How the results depend on the processing

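The number of specific peaks stayed within 1.5 times the reported one except with a score of at least 100, which left 18311 OSNK-specific and 13432 OySyNyK-specific peaks. Presence shares lay outside the interval of the reported share in nearly all alternatives, a rule that leaves out the counting error of the alternative itself. In each list below, the first 4 values are OSNK-specific peaks at OSNK D1, OSNK D5, OySyNyK D1 and OySyNyK D5, and the last 4 are OySyNyK-specific peaks at OySyNyK D1, OySyNyK D5, OSNK D1 and OSNK D5. With 500-bp windows they were 56.5%, 44.4%, 33.8% and 13.4%, and 42.5%, 40.02%, 30.8% and 32.6%. With overlap over 50% or more of a peak's length they were 55.1%, 40.4%, 30.6% and 11.4%, and 38.1%, 37.4%, 26.0% and 25.97%. With gaps of up to 1 kb they were 65.9%, 50.4%, 38.01% and 15.5%, and 45.5%, 43.6%, 33.4% and 30.4%. Among peaks scored 100 or more they were 63.5%, 36.4%, 37.0% and 7.03%, and 44.4%, 31.9%, 30.9% and 21.98%. With equal numbers of peaks they were 48.97%, 44.1%, 30.9% and 18.3%, and 35.6%, 48.3%, 20.1% and 26.5%. With equal numbers of 500-bp windows they were 46.1%, 42.6%, 30.4% and 18.1%, and 38.4%, 49.1%, 23.8% and 31.9%. OySyNyK-specific minus OSNK-specific presence at D5 of the own method turned from -6.94 percentage points to 4.17 with equal numbers of peaks and 6.47 with equal numbers of windows. For MEF it turned from 0.680 to -0.741 with a score of at least 100. The causes were not tested. The differences at D1 of either method, at D5 of the other method and in iPSC kept their sign under all 6 alternatives, with -20.3 to -7.65 points for D1 of the own method and 9.24 to 15.6 for iPSC. Depth was unknown and there was 1 library per group, so the variation between cultures could not be estimated. No paired analysis was possible because each group had 1 library and no test was made.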
